A study of Mus musculus with 26 samples.

Results

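Tbx3 and Tbx3os2 are neighbouring genes of mouse chromosome 5, and their RNA was followed through 26 libraries of proximal small intestine epithelium. They were taken as the rows whose symbols in capitals read TBX3 and TBX3OS2, 2 genes of the 20409 distinct symbols in the 4 deposited tables, and each has a row in every table. Tbx3 codes for a T-box transcription factor that mostly represses its targets, and Tbx3os2 is a long non-coding RNA read from the opposite strand. All groups came from mice of Villin-CreERT2 lines, in which the Villin promoter limits the tamoxifen-activated recombinase to gut epithelium. Mice received tamoxifen or its oil vehicle on 4 days running and were killed on day 6 or day 30 after the first injection.

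The SMAD1/5 table, at day 6, holds 3 controls given tamoxifen and 3 libraries labelled SMAD1/5 iDKO, an inducible double knockout. The day 30 SMAD table holds 2 SMAD1/5-line controls given tamoxifen, 3 SMAD1/4/5-line controls given oil, 2 libraries labelled SMAD1/5 iDKO and 3 labelled SMAD1/4/5 iTKO, a triple knockout. The SMAD4 table, at day 6, has 2 controls given oil and 2 libraries labelled SMAD4 iKO. The TBX3 table, at day 30, has 3 controls given oil and 3 libraries labelled TBX3 iKO. All mutants received tamoxifen. By the labels' protocols, controls given tamoxifen lacked the Cre transgene and controls given oil carried it, so active Cre and deletion go together in every comparison and cannot be told apart. In the SMAD4 and TBX3 tables tamoxifen itself goes with the genotype as well. Ages and the exons removed from each floxed gene are not given in the sources used here. The labels number the replicates without saying that each is a separate animal, so p-values measure only the spread between these libraries.

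BMP ligands bind receptors that phosphorylate SMAD1 and SMAD5, which enter the nucleus with SMAD4 and act on target genes. In the small intestine BMP signalling is known to be strongest toward the villus tip and weak in the crypt. TBX3 binds DNA through its T-box domain and is best known from limb, mammary gland and heart development. Antisense and neighbouring non-coding RNAs are common beside T-box genes, and most have no known role.

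In GENCODE M21 (build GRCm38) Tbx3 (ENSMUSG00000018604.18) lies on the plus strand at chr5:119670669-119684724. Tbx3os2 (ENSMUSG00000086847.1, biotype lincRNA) lies on the minus strand at chr5:119685095-119691218, with 3 exons, a spliced length of 1345 bases and a last exon of 960 bases. The 2 genes converge: their annotated 3' ends are 370 bases apart, or 363 in RefSeq (GRCm38.p6), and they do not overlap. Tbx3os2 is thus antisense in orientation only. The gene that does overlap Tbx3, Tbx3os1, shares 697 bases with its start and was not analysed here. No strand setting for the read counting is given, so RNA of either strand across the Tbx3os2 exons would be counted alike. The submitters' processing notes name builds GRCm39 and mm10 without a role, and the exon lengths of GENCODE M21 fit the Tbx3os2 values of the day 6 SMAD1/5 and TBX3 tables.

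**Figure D1:**
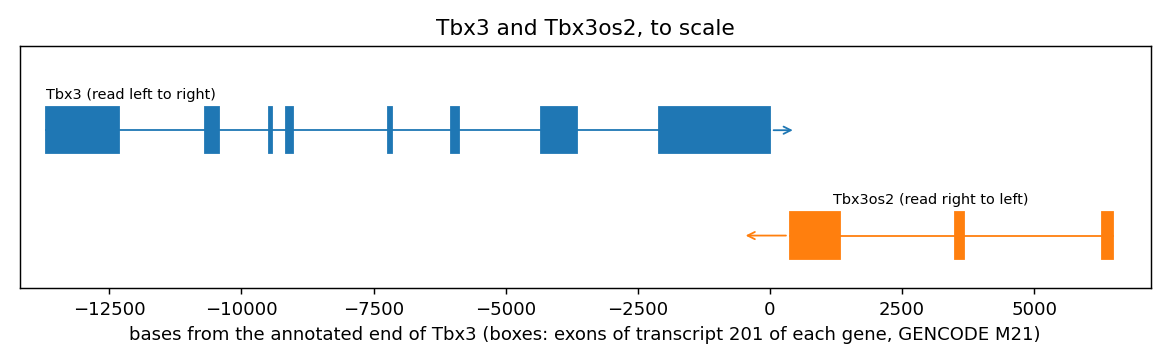
Exons (boxes) of Tbx3 and Tbx3os2 drawn to scale, with the distance in bases from the annotated end of Tbx3 on the horizontal axis. The arrows give the direction of transcription, and the genes face each other across a gap of 370 bases.

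Both ends of Tbx3os2 are shown because they frame the RNA with the largest rise among the genes tested in the libraries labelled TBX3 iKO. The first sequence is its promoter window of 300 bases (RefSeq, GRCm38.p6, chr5:119691169-119691468, minus strand), from 250 bases before the annotated start to 50 after it, with the letters GGCGCC in capitals. The second is the last 150 bases of its transcript (GENCODE M21, GRCm38, chr5:119685095-119685244, minus strand), which end nearest to Tbx3, with the letters ATTAAA in capitals.
Tbx3os2 promoter: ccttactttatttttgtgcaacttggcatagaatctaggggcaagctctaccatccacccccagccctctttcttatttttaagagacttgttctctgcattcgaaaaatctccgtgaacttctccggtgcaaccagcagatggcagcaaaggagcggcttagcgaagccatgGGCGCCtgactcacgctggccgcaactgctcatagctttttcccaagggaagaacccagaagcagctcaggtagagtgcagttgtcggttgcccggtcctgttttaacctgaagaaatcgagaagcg
Tbx3os2 3' end: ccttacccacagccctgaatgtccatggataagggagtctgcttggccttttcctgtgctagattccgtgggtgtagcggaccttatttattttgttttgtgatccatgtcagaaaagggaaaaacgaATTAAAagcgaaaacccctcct
GGCGCC, a GC-rich motif bound by SMAD1 and SMAD5, is its own reverse complement and was found at 1 place in the promoter window. It was present in 11.9% of the 32851 RefSeq promoter windows of that length. The SMAD4 box CAGAC and the T-box core GGTGTG were searched on both strands and were not in the window, against 49.6% and 19.0% of all windows. The longer T-box motif GGTGTGA, which contains the core, was also not in it, against 3.98% of windows. ATTAAA, a variant of the polyadenylation signal, ended 16 bases from the annotated transcript end. A match describes letters only and is not a measured binding site.

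Levels are in FPKM, fragments scaled by exon length and library total, so they can be compared between genes. Depth was read from the steps between FPKM values, in megafragments: it ranged over 10.003 to 18.6 for TBX3 libraries, 13.1 to 18.1 for the other day 30 libraries and 20.99 to 30.5 for the day 6 libraries of the SMAD1/5 line. It is unknown for SMAD4 libraries. Summed epithelial markers (8 genes) stood at 5151 FPKM or more in every library, and 10 listed mesenchyme markers summed to 0.487 to 13.1 FPKM. Smad4 fell in the libraries labelled SMAD4 iKO (6.15 against 23.9 FPKM) and SMAD1/4/5 iTKO (38.0 against 147). Smad1 did not pass the test in the libraries labelled iDKO or iTKO, and Smad5 rose in them (11.4 against 5.95 FPKM at day 6), so these libraries are named by their labels and whole-gene values do not check those deletions. In controls Tbx3 ranked at the 86.5th to 94.2nd percentile of all genes by level, and Tbx3os2 at the 36.3rd to 50.7th.

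Tbx3 was low in every library labelled as a SMAD mutant. At day 6 its level was 35.9, 40.6 and 37.0 FPKM in the 3 controls and 7.02, 6.36 and 7.79 FPKM in the 3 libraries labelled SMAD1/5 iDKO. The groups were far apart, and the mutants held 18.7% of the control mean. On the log2(FPKM + 0.5) scale Tbx3 fell by 2.34 ± 0.10 (SE; limma, adjusted p = 1.3e-04 over 10827 genes). Tbx3os2 stood at 2.02, 4.14 and 1.61 FPKM in the same controls and at 0.175, 0.0976 and 0.213 FPKM in the mutants. Its control values differed more among themselves, with replicate 2 high, but the groups did not overlap. Tbx3os2 fell by 2.14 ± 0.31 on that scale (limma adjusted p = 0.0056); the size depends on the pseudocount, at -3.27 with 0.1 and -1.56 with 1. Both genes were thus among the 8.26% of tested genes called lower, while 15.5% were called higher and 23.8% in all. In whole-tissue RNA, fewer cells that make a transcript and less of it per cell cannot be told apart.

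The Tbx3os2 values rest on few fragments. The recovered numbers were 57, 120 and 61 in the day 6 controls and 7, 4 and 8 in the mutants, which gives a mutant rate of 6.41% of the control rate (exact 95% interval 3.79 to 10.2, counting error only). Tbx3 had 4997 to 6904 fragments in the controls and 1285 to 1440 in the mutants. Paneth cell markers, a sign of how much crypt a preparation holds, were low in the number 2 library of each group: they summed to 60.3 FPKM in the control and 86.6 in the mutant, against 2232 to 7248 in the other 4. With both number 2 libraries left out (chosen after seeing the data), Tbx3 changed by -2.23 and Tbx3os2 by -1.73, adjusted p = 0.0073 and 0.0184. T cell markers summed to 110 to 137 FPKM in controls and 43.6 to 115 in mutants, ranges that overlap, with 0 of 8 called by limma. Tuft markers summed to 7.60 to 13.6 FPKM in controls and 4.64 to 4.85 in mutants, with 2 of 4 called lower (8.26% of all genes). The 8 epithelial markers summed to 5151 to 5756 FPKM in controls and 6680 to 7765 in mutants, with 4 called higher (15.5% of all genes). The part of these marker differences in the result was not tested. The median log2 change over all genes was 0.18 here, against 0.01 with each library centred on its median. Centring moved Tbx3 to -2.52 and Tbx3os2 to -2.31, and turned the share of called genes that were higher from 65.3% to 39.1%.

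**Figure D2:**
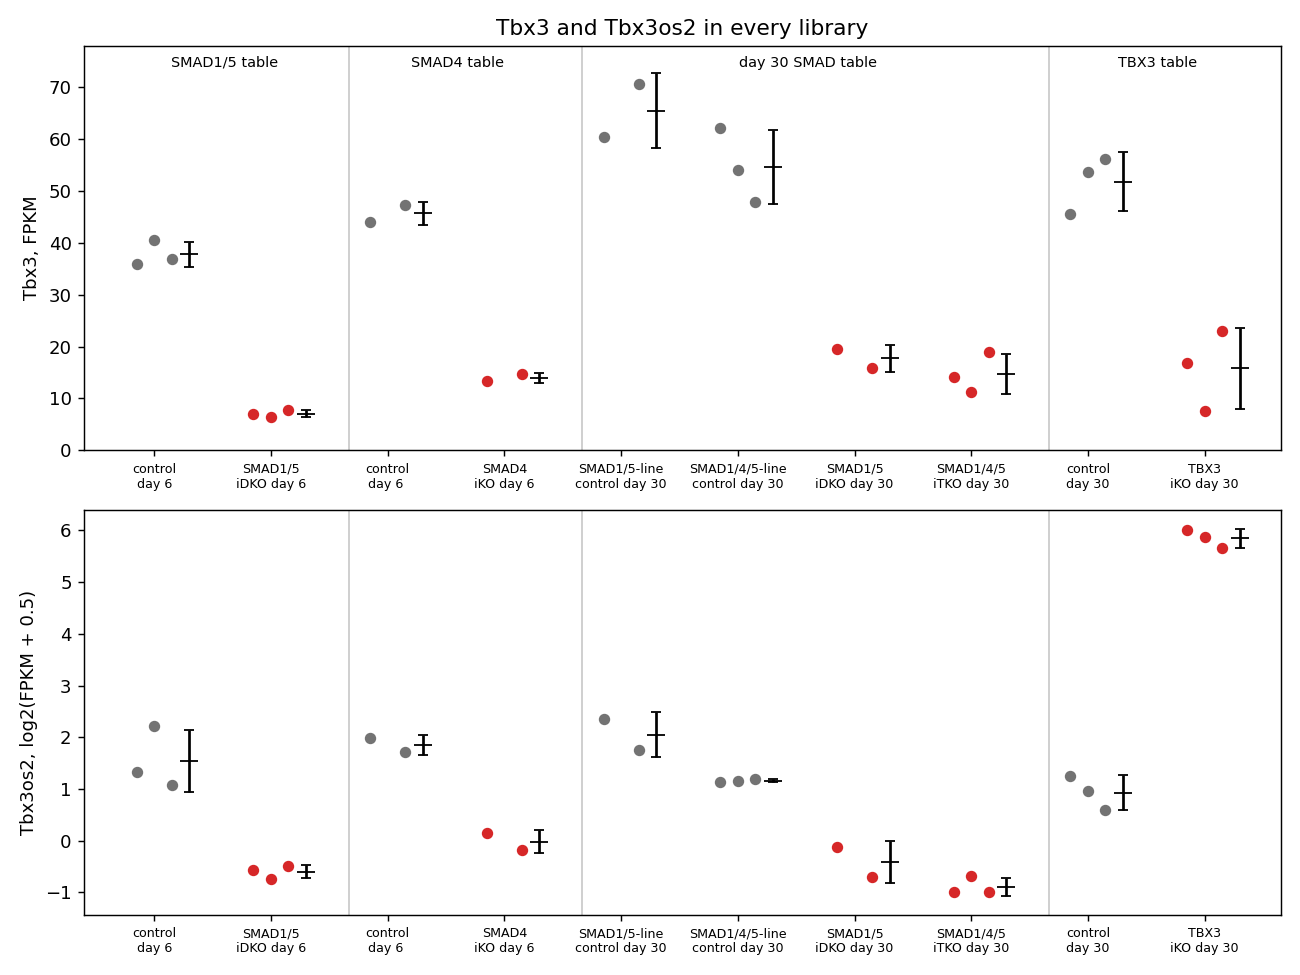
Tbx3 (top, FPKM) and Tbx3os2 (bottom, log2 of FPKM + 0.5) in all 26 libraries, controls in grey and mutants in red, with the mean and SD of each group as a bar to the right of its points; vertical lines separate the 4 tables. Tbx3 is lower in every mutant group, and Tbx3os2 is lower in the SMAD mutants and between 49.9 and 64.2 FPKM in the 3 TBX3 iKO libraries.

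At day 30 both genes were still low. Tbx3 stood at 60.4 and 70.7 FPKM in the SMAD1/5-line controls and at 62.2, 54.0 and 47.9 FPKM in the SMAD1/4/5-line controls. The libraries labelled SMAD1/5 iDKO had 19.6 and 15.9 FPKM, 30.1% of the mean of the 5 controls, and those labelled SMAD1/4/5 iTKO had 14.1, 11.2 and 18.9 FPKM, 24.96% of it. Every mutant library lay below every control. Tbx3 fell in both, with a change of -1.70 ± 0.19 in the double mutant (limma adjusted p = 2.5e-04) and of -1.99 ± 0.17 in the triple mutant (limma adjusted p = 6.1e-05), on the log2(FPKM + 0.5) scale. The 2 comparisons share their 5 controls. Genes called lower made up 9.31% and 8.95% of the 11939 tested, and genes called higher 9.43% and 9.13%; in either direction these were 18.7% and 18.1%.

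Tbx3os2 was close to the detection limit in the day 30 mutants. Its controls had 4.62 and 2.85 FPKM (SMAD1/5 line) and 1.70, 1.71 and 1.79 FPKM (SMAD1/4/5 line). The double mutants had 0.413 and 0.119 FPKM, about 8 and 2 fragments. Of the triple mutants 2 had no fragment, which at their depth allows up to 0.196 and 0.176 FPKM (3 fragments), and the other had 0.121 FPKM, about 2 fragments. No mutant value reached the lowest control. Tbx3os2 fell by 1.93 ± 0.35 in the double mutant (limma adjusted p = 0.0039) and by 2.41 ± 0.31 in the triple mutant (limma adjusted p = 5.8e-04). With pseudocounts of 0.1 and 1 these changes were -2.86 and -1.43 in the double mutant and -4.23 and -1.70 in the triple, all called. The fragment rate was 10.8% of the control rate in the double mutant (exact 95% interval 5.08 to 20.2) and 1.59% in the triple (0.192 to 5.83). Fragment numbers of this table are less certain, because a fitted exon length was needed and only 39.2% to 41.7% of low values came out whole within 0.05 fragments.

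The day 30 groups also differed in markers of other cells. Of all genes, 9.31% were called lower in the double and 8.95% in the triple mutant. Paneth markers summed to 13462 to 19462 FPKM in the controls against 3513 to 7363 in the mutants. All 5 of 5 listed Paneth markers were called lower in both mutant groups. T cell markers summed to 173 to 268 FPKM against 64.1 to 115. Of these, 6 of 8 were called lower in the double mutant and 8 of 8 in the triple. Goblet markers summed to 7773 to 9739 FPKM against 3826 to 5007, with 6 of 7 lower in both mutant groups. Enteroendocrine markers summed to 373 to 559 FPKM against 200.7 to 292, with 5 of 7 lower in the double mutant and 7 of 7 in the triple. Epithelial markers summed to 8339 to 9446 FPKM in the controls, 10754 to 11985 in the double and 8802 to 9326 in the triple mutant. Of 8, 5 were called higher in the double mutant (9.43% of all genes). In the triple 3 were higher (9.13% of all genes) and 2 lower. Of 6 stem and crypt markers, 2 were called lower in the double mutant, and 1 higher and 3 lower in the triple. No tuft marker of 5 tested was called. The part of these marker differences in the fall of Tbx3 and Tbx3os2 was not tested.

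The triple mutant differed from the double mutant in neither gene beyond the error. The difference was -0.28 ± 0.21 for Tbx3 (95% interval -0.75 to 0.18, limma adjusted p = 0.675) and -0.48 ± 0.38 for Tbx3os2 (95% interval -1.33 to 0.36, limma adjusted p = 0.703), and the groups overlapped for both. In this comparison 0.762% of genes were called, 0.218% higher and 0.544% lower. By fragments the Tbx3os2 rate of the triple mutant was 14.8% of that of the double mutant, 2 against 10 fragments, with an exact 95% interval of 1.58 to 69.5 that covers counting error only.

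Between the 2 kinds of day 30 control the difference in Tbx3 did not pass the test, at -0.26 ± 0.20 (oil, SMAD1/4/5 line, minus tamoxifen, SMAD1/5 line; limma adjusted p = 0.946). Tbx3os2 was lower in all 3 oil controls than in both tamoxifen controls, by 0.89 ± 0.28, which did not pass the adjustment (unadjusted p = 0.0107, limma adjusted p = 0.909; 0.0168% of genes called). Line, Cre and injection differ together here and cannot be told apart. Against controls of their own line alone, Tbx3os2 changed by -2.46 in the double mutant and by -2.06 in the triple mutant, and both passed. For the triple mutant that comparison also sets tamoxifen against oil.

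SMAD4 loss alone went with the same direction at day 6. Tbx3 stood at 44.1 and 47.3 FPKM in the controls and 13.4 and 14.7 in the libraries labelled SMAD4 iKO, 30.7% of the control mean. Tbx3os2 stood at 3.48 and 2.78 FPKM in the controls and 0.606 and 0.385 in the mutants, 15.8% of the control mean. The groups of 2 did not overlap for either gene. Tbx3 fell by 1.67 ± 0.14 (limma adjusted p = 0.0138) and Tbx3os2 by 1.87 ± 0.25 (limma adjusted p = 0.0319), where 3.42% of genes were called, 1.28% higher and 2.14% lower. Leaving out any 1 of the 4 libraries ended both calls, with adjusted p of 0.130 to 0.240.

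Markers of other cells differed in the SMAD4 table too. T cell markers summed to 106 to 134 FPKM in the controls and 34.8 to 57.0 in the mutants, tuft markers to 15.6 to 18.9 and 7.71 to 8.32, and enteroendocrine markers to 281 to 460 and 200.2 to 235. In each of these lists 1 member was called lower, of 8, 4 and 7 tested, where 2.14% of all genes were. Paneth markers were low in both number 2 libraries, at 1958 FPKM in the control and 2201 in the mutant, against 25089 and 9494 in the number 1 libraries. The part of these differences in the fall of Tbx3 and Tbx3os2 was not tested.

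The TBX3 iKO libraries held the reverse arrangement: Tbx3 was low and Tbx3os2 was high. Tbx3 stood at 45.5, 53.7 and 56.3 FPKM in the controls and at 16.9, 7.53 and 22.9 FPKM in the libraries labelled TBX3 iKO, so the targeted gene was lower in all 3 but kept 14.5% to 44.3% of the control mean. A whole-gene value also counts reads from exons that a deletion leaves in place. Tbx3 fell by 1.81 ± 0.36 (limma adjusted p = 0.0479), a rank of 20 among the falls of 9794 genes. The call is fragile: leaving out any 1 control or TBX3 iKO replicate 1 gave adjusted p of 0.116 to 0.174, and centring each library gave 0.0653.

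Tbx3os2 stood at 1.88, 1.44 and 1.00 FPKM in the TBX3 controls and at 64.2, 58.1 and 49.9 FPKM in the TBX3 iKO libraries. Each mutant was far above each control, and the mutant mean was 39.9 times the control mean. The rise of 4.92 ± 0.19 on the log2(FPKM + 0.5) scale (limma adjusted p = 1.4e-04) was the largest among the 9794 genes tested, of which 3.42% were called, 1.34% higher and 2.08% lower. In fragments, 864, 981 and 752 were recovered in the mutants and 31, 36 and 17 in the controls. That is a rate ratio of 39.8 (exact 95% interval 32.03 to 50.1, counting error only), from 2597 against 84 fragments. In the mutants Tbx3os2 thus reached the level that Tbx3 had in the controls. The mutant with the least Tbx3, replicate 2, was not the one with the most Tbx3os2. Leaving out any 1 library left the rise between 4.74 and 5.08.

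Markers of other cells gave the following values in the TBX3 table. Paneth markers were low in all 6 libraries (71.0 to 196 FPKM summed). T cell markers ranged from 75.7 to 128 FPKM in the controls and 29.7 to 182 in the mutants. The 10 mesenchyme markers summed to 0.519 to 1.13 FPKM in the controls and 0.487 to 1.75 in the mutants. Goblet markers summed to 918 to 2530 FPKM in the controls and 218 to 3044 in the mutants, a wider spread. Enteroendocrine markers summed to 151 to 239 and 67.9 to 240 FPKM, and epithelial markers to 5826 to 6226 and 5499 to 7858. No tested member of the Paneth, T cell, goblet, enteroendocrine or epithelial lists was called, where 3.42% of all genes were. The part of these differences in the result was not tested.

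**Figure D3:**
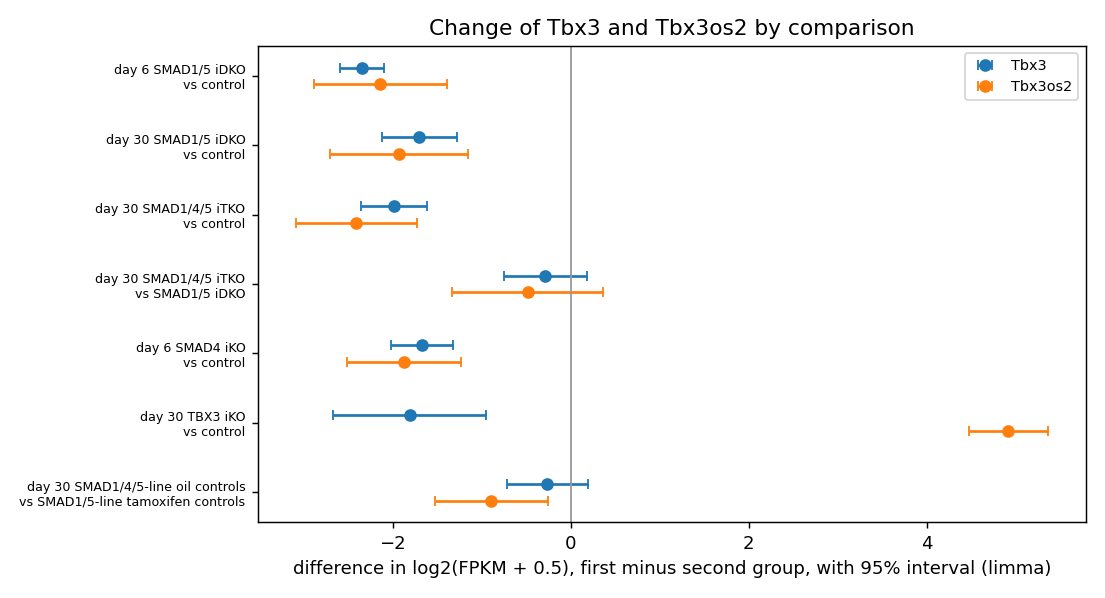
Difference in log2(FPKM + 0.5) of Tbx3 (blue) and Tbx3os2 (orange) in 7 comparisons, with 95% intervals from limma. Tbx3 lies between -2.34 and -1.67 in all 5 comparisons of a mutant with controls, while Tbx3os2 lies between -2.41 and -1.87 in the 4 SMAD comparisons and at 4.92 in the TBX3 comparison.

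The balance between the 2 RNAs was read within each library, as Tbx3os2 per 100 Tbx3 in FPKM. This measure, without a pseudocount, was chosen after seeing the data. Controls held 6.72 ± 3.07 (SD, n = 3) in the day 6 SMAD1/5 table, 4.26 ± 1.96 (n = 5) at day 30, 6.89 ± 1.43 (n = 2) in the SMAD4 table and 2.86 ± 1.19 (n = 3) in the TBX3 table. The day 6 double mutants held 2.25 ± 0.636 (exact permutation p = 0.1, two-sided, the smallest that 3 against 3 allows). At day 30 the double mutants held 1.43 ± 0.966 (exact permutation p = 0.143) and the triple mutants 0.359 ± 0.622 (exact permutation p = 0.0179, the smallest possible). SMAD4 iKO libraries held 3.58 ± 1.36 (exact permutation p = 0.333, the smallest possible). In each SMAD table every mutant lay below every control of its table, so on this measure Tbx3os2 was the scarcer of the 2 by a wider margin. The triple mutant value rests on about 2 Tbx3os2 fragments in all. With the pseudocount of 0.5, as the test was planned, no SMAD comparison of the log2 ratio with controls passed: the differences were 0.20, -0.23, -0.43 and -0.20 in the order above, with exact permutation p of 0.6, 0.619, 0.286 and 0.667. The ratio of these low values therefore depends on the pseudocount.

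In the TBX3 iKO libraries the balance turned over. They held 380, 771 and 218 Tbx3os2 per 100 Tbx3, against 4.13, 2.68 and 1.78 in their controls. The log2 ratio differed by 6.73 (exact permutation p = 0.1, two-sided, the smallest that 3 against 3 allows), and by 6.27 to 7.32 under the alternatives tried.

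**Figure D4:**
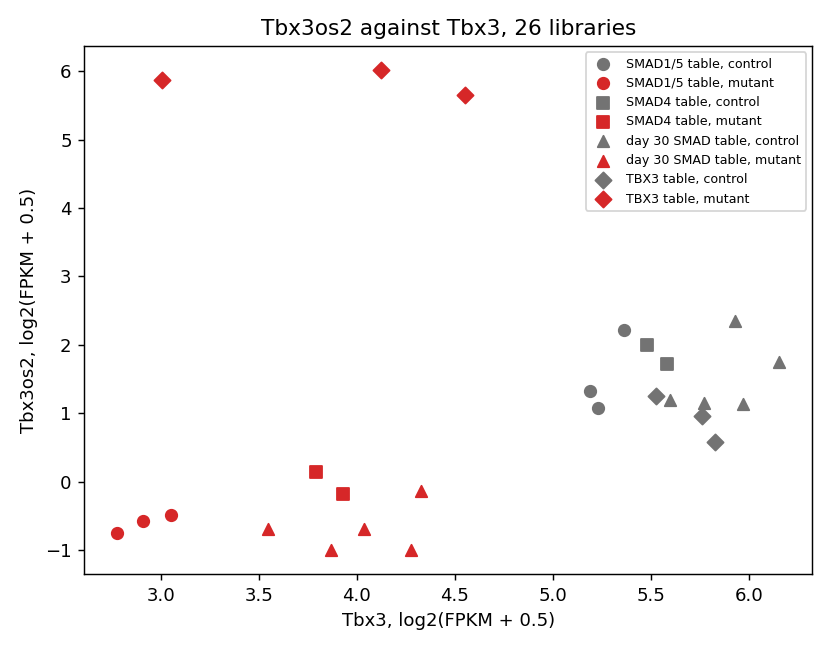
Tbx3os2 against Tbx3 in 26 libraries, both as log2(FPKM + 0.5), controls in grey, mutants in red, and 1 symbol for each table. Controls sit at the right, SMAD mutants at the lower left, and the 3 TBX3 iKO libraries at the top, with low Tbx3 and Tbx3os2 near the Tbx3 level of controls.

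None of the other annotated neighbours with a row in the TBX3 table was high enough there to be tested. Of the 3 genes on the Tbx3 side, the non-coding AW549542, 90.2 kb away, had 0.334 FPKM in TBX3 iKO against 0.226 in controls. Gm16064 and Gm16063 were listed at 0 in every TBX3 iKO library. Their controls were near 0 too, at 0 to 0.171 FPKM for Gm16064 and 0 to 0.0317 for Gm16063. At day 6 AW549542 had 0.0113 to 0.0424 FPKM in SMAD1/5 iDKO and 0.132 to 0.211 in controls, groups that do not overlap, but it was too low to be tested. Beyond Tbx3os2, Tbx5 (112 kb) had a row in the SMAD4 table alone (0.584 against 0.331 FPKM). Rbm19 (432 kb), a ribosome assembly factor, was at 0.358 against 0.418 FPKM in the TBX3 table. Rbm19 rose at day 6 in SMAD1/5 iDKO by 0.62 ± 0.18 (limma adjusted p = 0.0473) and did not pass in the other SMAD comparisons.

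Few other T-box genes were detected beside Tbx3. Of 17 listed family members, 2 were tested in each table, Tbx3 and Mga, a repressor with a T-box and a second DNA-binding domain. Mga ranged from 1.70 to 13.6 FPKM over all libraries and did not pass in any comparison (0.26 ± 0.21 at day 6 in SMAD1/5 iDKO, -0.21 ± 0.16 in TBX3 iKO). Each table held 8 to 10 of the 17, and the members with a row stayed at or below 0.755 FPKM in those tables, apart from Tbx3 and Mga. Tbx2, the closest relative of Tbx3, had a row in 3 tables.

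Members of the BMP pathway were called in every SMAD mutant. Of 7 tested BMP target genes, 5 fell and 1 rose at day 6 in SMAD1/5 iDKO, where 8.26% of all genes fell and 15.5% rose, and the list median was -1.98 against 0.18 over all genes. Id2, an inhibitor of helix-loop-helix factors, changed by -3.19 ± 0.22, and Smad6, an inhibitory SMAD, by -2.45 ± 0.18. In SMAD4 iKO 5 of 7 fell (2.14% of all genes), and at day 30 6 of 7 fell in each mutant (9.31% and 8.95% of all genes). In TBX3 iKO 3.42% of all genes passed, and none of the 6 tested BMP target genes did. Id2 stood at 16.3 against 30.2 FPKM (limma adjusted p = 0.101) and Smad6 at 8.44 against 4.69 (limma adjusted p = 0.107). The list median there was 0.36 against -0.06 over all genes. None of 9 tested BMP receptors and SMADs passed in TBX3 iKO. At that share, no call among so few genes says little about either list.

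Among BMP ligands and antagonists Bmp3, a secreted member known to oppose BMP signalling, rose in all 5 comparisons of a mutant with its controls. In TBX3 iKO it stood at 30.3 ± 9.87 against 1.89 ± 0.681 FPKM (SD), a rise of 3.67 ± 0.28 (limma adjusted p = 0.0031). It rose by 2.31 ± 0.40 in SMAD1/5 iDKO at day 6, by 1.55 ± 0.29 and 3.04 ± 0.25 in the double and triple mutants at day 30, and by 1.84 ± 0.28 in SMAD4 iKO (limma adjusted p = 0.0405). Bmp1, a procollagen-cleaving protease despite its name, fell by 1.22 ± 0.16 in TBX3 iKO. Counts for the list were 1 up and 1 down of 5 in TBX3 iKO (1.34% and 2.08% of all genes), and 1 up and 2 down of 5 in SMAD1/5 iDKO at day 6 (15.5% and 8.26%).

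Genes known as TBX3 targets in other tissues were not called in TBX3 iKO (0 of 4 tested, list median 0.32 against -0.06). Of all genes 3.42% were called there, so no call among 4 says little about these genes. The cell cycle inhibitor Cdkn1a stood at 221 against 139 FPKM (adjusted p = 0.0643), Cdkn2b at 62.7 against 39.95 (adjusted p = 0.107), and the adhesion gene Cdh1 at 172 against 170. In SMAD1/5 iDKO at day 6 Cdkn1a fell by 0.62 ± 0.15 and Cdh1 rose by 0.89 ± 0.13.

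Villus programmes were compared by the same lists. Of 15 nutrient transporters of the mid villus, 13 fell in SMAD1/5 iDKO at day 6 (8.26% of all genes), among them the peptide transporter Slc15a1 (-2.16 ± 0.09) and the glucose transporter Slc5a1 (-1.93 ± 0.12). In TBX3 iKO 1 of 15 fell, the amino acid transporter Slc6a20a, by 1.05 ± 0.13 (limma adjusted p = 0.0119), where 2.08% of all genes fell, and the list median was -0.04. Of 10 villus bottom genes, 2 rose in TBX3 iKO (1.34% of all genes): Lypd8, which keeps bacteria off the epithelium, by 2.21 ± 0.30, and the gasdermin Gsdmc4 by 0.76 ± 0.14. Lypd8 also rose in SMAD1/5 iDKO at day 6, by 2.10 ± 0.16. Of 14 villus tip genes, the lipoprotein gene Apoa4 fell by 0.81 ± 0.12 and the RNA-editing enzyme Apobec1 rose by 0.87 ± 0.16 in TBX3 iKO. Under the alternatives tried the TBX3 iKO counts ranged over 0 to 3 rising villus bottom genes, 0 to 2 falling transporters, 0 to 2 rising villus tip genes and 0 to 1 falling, so each of these list counts was lost under some alternative. Differences between the TBX3 and SMAD tables were not tested.

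Of 23 tested enterocyte transcription factors, 1 passed in TBX3 iKO, Nr1h4, the bile acid receptor FXR, where 3.42% of all genes passed. It stood at 58.1 ± 9.86 against 14.0 ± 1.63 FPKM (SD), a rise of 2.00 ± 0.16 (limma adjusted p = 0.0031). In SMAD1/5 iDKO at day 6 it was at 16.0 against 15.4 FPKM and did not pass. There 3 of 24 fell, among them Maf (-2.41 ± 0.13) and Klf4 (-1.33 ± 0.10), and 5 rose, shares near those of all genes (8.26% and 15.5%). Maf in TBX3 iKO was at 67.5 against 83.0 FPKM and Klf4 at 111 against 101, and neither passed.

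Other genes followed Tbx3 closely across the SMAD tables. Over the 20 libraries of the 3 SMAD tables, with each value taken as its log2 difference from the control mean of its table, 108 of 9036 other genes (1.20%) had a Pearson r with Tbx3 above 0.9. The points share their tables and mutant groups, so this is a description. The 8 highest were Slc5a4a (r = 0.973), a sugar transporter family member, Cyp4b1 (0.962) and Cyp2c29 (0.960), both cytochrome P450 enzymes, Sct (0.960), the hormone secretin, Rab11fip4 (0.960), a vesicle traffic gene, Acsm5 (0.957), a fatty acid activating enzyme, Fam118a (0.956) and Id2 (0.956). Tbx3os2 came at rank 25 with r = 0.940.

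In the TBX3 table these 8 went different ways. Its libraries did not enter the likeness, but they did enter the level filter that the 8 had to pass. A gene low in 1 group could pass that filter through the other. Cyp2c29 passed through its controls, at 7.37 to 15.7 FPKM against 0.702 to 1.70 in TBX3 iKO. The values below are therefore a description. Slc5a4a changed by -0.88 ± 0.15 (limma adjusted p = 0.0270), Cyp2c29 by -2.88 ± 0.32 (limma adjusted p = 0.0097) and Acsm5 by -1.16 ± 0.17 (limma adjusted p = 0.0195), so 3 of 8 were called lower, where 2.08% of all genes were. Cyp4b1 changed by -0.60 and Id2 by -0.84, neither of which passed. Sct (0.12), Rab11fip4 (0.55) and Fam118a (-0.33) did not pass either.

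**Figure D5:**
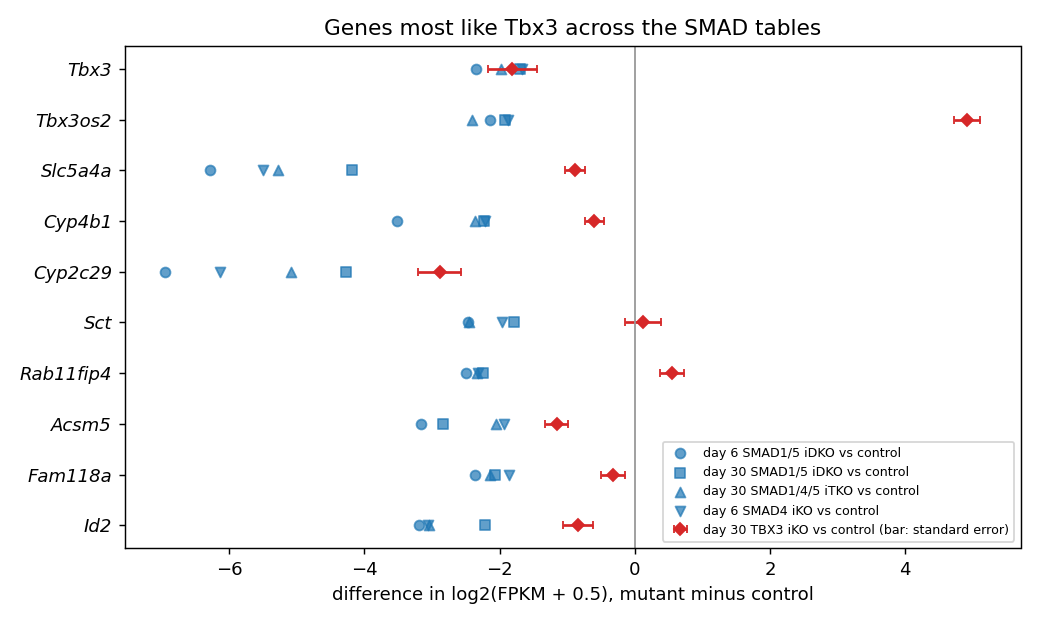
Log2 differences, mutant minus control, of Tbx3, Tbx3os2 and the 8 genes most like Tbx3 in the 4 SMAD comparisons (blue) and in TBX3 iKO (red, with standard error). All 10 genes are lower in the SMAD mutants, from which the 8 were chosen, while in TBX3 iKO they run from -2.88 (Cyp2c29) to 4.92 (Tbx3os2).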

How the data were processed

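RNA from whole epithelium was isolated with TRIzol, enriched for polyA and sequenced in paired ends (NovaSeq X Plus), as the labels' protocols state. HISAT2 2.2.1 and Subread featureCounts 2.0.1 are named in the submitters' processing notes. Expression was deposited by the authors as FPKM, in 4 tables of 15653 to 18155 genes. Each was normalised on its own, so no test of one group against another crossed tables. The relation of the 2 genes among the 13 control libraries joined the tables as deviations from group means. Here 0.5 was added and log2 values were fitted with limma 3.58.1 (R 4.3.3) with a mean-variance trend. A gene was kept if its FPKM reached 1 in a number of libraries equal to the smaller group, which both members did; under a stricter filter the 2 members were kept whatever their level. Benjamini-Hochberg adjustment covered every gene kept, and 0.05 was the threshold. One fit took all 10 day 30 SMAD libraries, with the 5 controls joined. Single ratios were compared by exact permutation tests over every split of the libraries. The exact intervals of fragment rates were computed with scipy 1.17.1. The script was tested on simulated data.

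The 2 members and all gene lists were chosen with earlier results of these data known. Named genes were the members, the annotated neighbours, up to 4 listed genes of smallest adjusted p per list in the TBX3 iKO and day 6 SMAD1/5 iDKO comparisons, and the 8 genes most like Tbx3; further values of these and of listed BMP pathway genes were added where a sentence needed them. Fragment numbers came from the steps in the FPKM values (3 of 4 tables; SMAD4 depth unknown), and intervals and floors cover counting error only.

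No main fit or exact test used equal replicate numbers as pairs. In the day 6 SMAD1/5 table the residuals of same-numbered libraries correlated at 0.148, 0.552 and 0.221. Pairs entered only in the replicate block, which was fitted as an alternative. Alternatives were other pseudocounts and filters, centred or quantile-normalised values, limma without trend or with a robust prior, the replicate block, own-line controls, a fit restricted to the groups compared, and leaving out each library.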

Additional observations from a re-analysis of the deposited data

Results flagged for a closer look

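Tbx3os2 changed by 4.92 on the log2(FPKM + 0.5) scale in TBX3 iKO at day 30, with every mutant library above every control, while it fell in all 4 SMAD comparisons with every mutant library below every control. The opposite directions put this result here. The tables were normalised separately, so the difference between them was not tested.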

How the results depend on the processing

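Of 304 alternatives for 20 results on the 2 genes, 272 kept the direction and the side of the threshold, 21 lost the call, 3 gained one and 8 reversed. That tally includes ratio results that could not be called. Their smallest possible exact permutation p was 0.1 at day 6, in the triple against the double mutant and in TBX3 iKO, and 0.333 in SMAD4 iKO. It also includes the triple against the double mutant and the 2 kinds of control, which were uncalled from the outset. Tbx3 and Tbx3os2 in the day 6 SMAD1/5 and day 30 SMAD comparisons with controls, and Tbx3os2 in TBX3 iKO (4.59 to 5.26), kept their calls under every alternative tried, though the size for Tbx3os2 ranged over -3.27 to -1.56 at day 6, -2.86 to -1.43 in the day 30 double and -4.23 to -1.70 in the triple mutant. Tbx3os2 in SMAD4 iKO was lost with a filter of FPKM at least 5 on all genes but the 2 members (-1.87, adjusted p = 0.0756) and with quantile normalisation (-1.92, adjusted p = 0.0511). With 1 library left out, SMAD4 iKO gave -1.74 to -1.60 for Tbx3 and -2.03 to -1.71 for Tbx3os2, all uncalled; the lone library of an arm is assumed to vary like the others. Tbx3 in TBX3 iKO was lost with a pseudocount of 0.1 (-1.84, adjusted p = 0.0520), with no filter (-1.81, 0.116), centred (-1.75, 0.0653), quantile normalised (-1.81, 0.0522), without trend (-1.81, 0.0634) and with a robust prior (-1.81, 0.0509), and ranged from -2.14 to -1.37 with 1 library left out (adjusted p = 0.0203 to 0.174). The cause was not tested. The replicate block gave Tbx3 -2.34 and Tbx3os2 -2.14 at day 6 in SMAD1/5 iDKO (called), and -1.75, -2.34, -2.12 and -2.64 for the day 30 double and triple mutants, -1.67 and -1.87 in SMAD4 iKO, and -1.81 (not called, adjusted p = 0.104) and 4.92 in TBX3 iKO, where same-numbered libraries correlated at -0.122, -0.286 and -0.002 and were not taken as pairs. In the day 30 SMAD table the block also put libraries of different lines and injections under the same number. Same-numbered controls there correlated at 0.253 and -0.0132 with the double mutants, and at -0.106, -0.151 and -0.15 with the triple mutants. Those libraries were not taken as pairs either. Apart from Tbx3 in TBX3 iKO, the block changed no call of the 2 genes. The block moved the genes called from 131 higher and 204 lower to 23 and 17 in TBX3 iKO, and from 156 and 261 to 314 and 520 in SMAD4 iKO. It moved them from 1126 and 1112 to 367 and 379 in the day 30 double mutant, and from 1090 and 1069 to 408 and 490 in the triple. Leaving out 1 library gave 0 calls in SMAD4 iKO, 21 to 124 higher and 21 to 214 lower in TBX3 iKO, and 582 to 1592 higher and 504 to 822 lower at day 6. Centring gave 767 higher and 1193 lower at day 6, and in TBX3 iKO turned the share of calls that were higher from 39.1% to 53.3%. The log2 ratio of Tbx3os2 to Tbx3 reversed at day 6 with a pseudocount of 0.1 (-0.86), without a pseudocount (-1.58, chosen after seeing the data) and without control 3 (-0.0119; left-out range -0.0119 to 0.49), and with a pseudocount of 1 at day 30 (0.25 in both mutants) and in SMAD4 iKO (0.17; 0.0271 without iKO 2, left-out range -0.43 to 0.0271). The triple against the double mutant ranged from -1.99 to 0.0416 over all alternatives, and from -0.48 to 0.0416 with 1 library left out. With a pseudocount of 0.1 the ratio was called in the double (-1.14, exact p = 0.0476) and triple mutant (-2.21, exact p = 0.0179), and in the triple without one (-3.57, exact p = 0.0179).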

Other observations

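Among the 13 control libraries, as deviations from their group means on the log2 scale, Tbx3os2 and Tbx3 gave a Pearson r of -0.216 (permutation p = 0.486) and a Spearman rho of -0.401 (permutation p = 0.224), and r was -0.25 without the 2 libraries farthest in Tbx3. This was the 1 relation of its kind computed, so the adjusted values equal these. No relation between the 2 RNAs was thus detectable within controls.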
